A study of Caenorhabditis elegans with 24 samples.

Results

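Collagens are the main structural proteins of the Caenorhabditis elegans cuticle, and mutations in some of them change the shape of the animal. This account follows 10 genes of this kind that lie outside the group forming the annular furrows of the cuticle: the blister genes bli-1 and bli-2, the roller and squat genes rol-6, sqt-1, sqt-2 and sqt-3, and the dumpy genes dpy-17, dpy-5, dpy-13 and dpy-4. They were taken by name and mutant phenotype, with earlier results of these data known, and all 10 were found among the 21689 genes measured. RNA was sequenced from whole young adults at day 1 of adulthood, kept at 20 °C with OP-50-1 E. coli as food, in 24 libraries, 4 for each of 6 genotypes. The genotypes were daf-16;daf-2;htz-1 (called the triple mutant here), daf-2;htz-1, htz-1, daf-16;daf-2, daf-2 and wild type (wt, strain N2), where daf-16 stands for the allele mu86, daf-2 for e1370 and htz-1 for bon101. The receptor for insulin/IGF-1 signals is the product of daf-2, the FOXO transcription factor that acts when this receptor is less active is the product of daf-16, and the histone variant H2A.Z is the product of htz-1. The labels do not say what bon101 changes in htz-1, nor whether the 4 libraries of a genotype came from separate cultures, so each p-value reflects only the spread among these libraries.

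The cuticle is secreted by the epidermis, once in the late embryo and again before each moult, and a different set of collagens is made for each cuticle. Collagen chains are hydroxylated, trimmed by proteases, secreted and cross-linked, and many collagen genes are transcribed for only part of each moulting cycle. Mutation of a shape collagen can, depending on the gene and allele, shorten the body (dumpy), twist it so that the animal turns about its long axis (roller), or detach the layers of the adult cuticle so that fluid gathers between them (blister). BLI-1 and BLI-2 belong to the struts that join the cortical and basal layers of the adult cuticle. ROL-6 and SQT-1 act together in the cuticle, and a dominant rol-6 allele is a widely used marker of transgenic animals. SQT-3 and DPY-17 also act together: secretion of SQT-3 depends on DPY-17, and sqt-3 is needed to hold the elongated shape of the embryo.

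The measured quantity was the regularized log2 (rlog) value that the authors deposited, on which a difference of 1 is a 2-fold ratio. The rlog transformation pulls genes with few reads towards their mean, so differences of low genes are understated. The values carry no correction for gene length, and levels are therefore compared between genotypes for 1 gene and not between genes. Read counts were not part of the values, so the depth behind them is unknown. The limma test with Benjamini-Hochberg adjustment covered 14482 genes with a mean of at least 3 over the 24 libraries, and a gene was called at an adjusted p below 0.05. All 10 collagens passed this filter, some of them through the genotypes in which they were high: the mean reached 3 in 3 of the 6 genotypes for bli-2, in 4 for rol-6, sqt-1 and dpy-5, in 5 for bli-1, sqt-2 and dpy-13, and in all 6 for sqt-3, dpy-17 and dpy-4. Counts and medians over the 10 genes are therefore given as descriptions.

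The genes are scattered over 5 chromosomes (build WBcel235, Ensembl annotation). On chromosome II lie 5 of them, a chromosome that holds 17.3% of the 19985 protein-coding genes, and the nearest 2 of these 5 are 627733 bases apart. They are compact genes, with a median of 3 exons against 5 for all protein-coding genes, and a median protein of 306.5 residues against 329. The largest, bli-1, encodes 948 residues, and the smallest, dpy-5, encodes 284 residues in 1 exon. Another annotated gene overlaps 4 of them. The overlaps of bli-2 with zyg-1 and of dpy-4 with atln-2 and 2 piRNA genes share no exonic base, that of bli-1 with dph-2 shares 7 bases, and that of sqt-3 with the noncoding RNA F23H12.13 shares 144 bases, or 10.1% of the exonic bases of sqt-3. The library method does not mark strand, so reads from those bases of sqt-3 cannot be told apart from reads of F23H12.13, which was not among the genes measured.

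The transcript of htz-1 itself was not lower in the strains that carry bon101: its rlog value ranged over libraries from 11.20 to 11.70 in the triple mutant, 11.28 to 11.35 in daf-2;htz-1 and 11.21 to 11.53 in htz-1, against 10.64 to 10.93 in daf-16;daf-2, 10.67 to 11.30 in daf-2 and 10.62 to 11.23 in wt. The transcript level therefore does not check these labels. A few libraries stood apart from the others of their genotype in these collagens. Replicate 3 of the triple mutant was the highest of its 4 libraries in 8 of the 10 genes, with a median gap of 3.19 to the median of the other 3. Replicate 1 of daf-2 and replicate 1 of wt, which share a batch, were each the lowest of their 4 in 9 of the 10, with median gaps of -2.51 and -2.28. Smaller gaps of the same kind occurred in daf-16;daf-2, where replicate 3 was the highest in all 10 and replicate 4 the lowest in 8. For several of the differences that moved when such libraries were left out, the value without them is given as well.

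**Figure D1:**
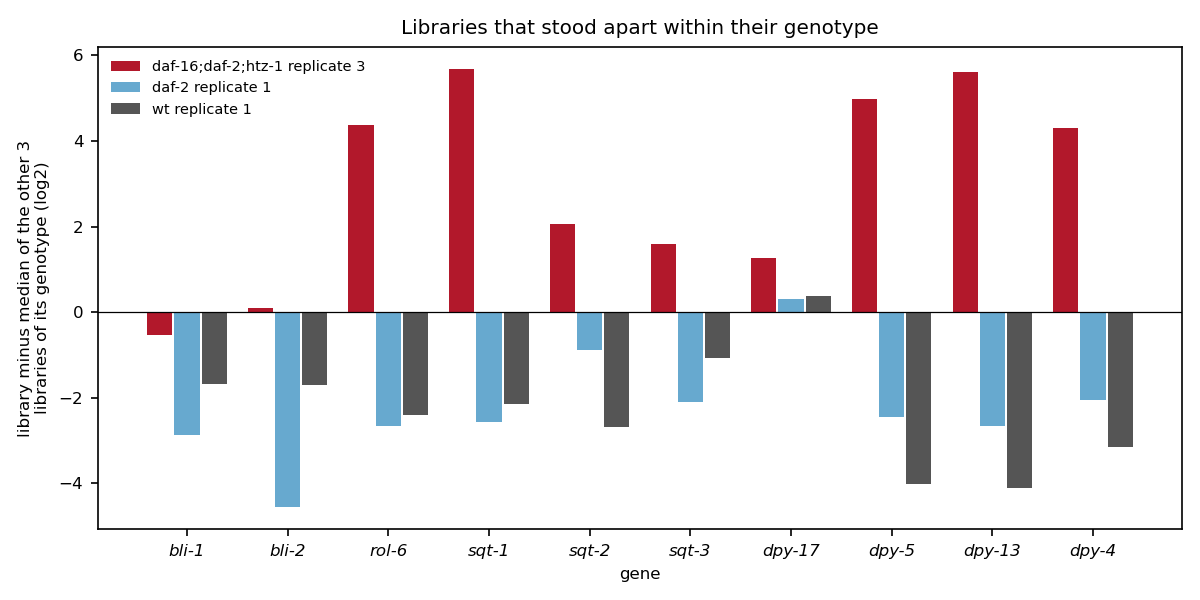
Each bar is the rlog value (log2) of 1 library minus the median of the other 3 libraries of its genotype, for replicate 3 of the triple mutant (red), replicate 1 of daf-2 (blue) and replicate 1 of wt (grey), by gene along the x axis. The red bars reach 5.69 for sqt-1, the blue and grey bars are below 0 for every gene but dpy-17, and bli-1 and bli-2 are the genes for which the red bar is not clearly above 0.

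Other transcripts moved with these libraries. The mean rlog value of 4 adult-stage cuticle collagens (col-7, col-19, col-62 and col-63) was 10.8 in daf-2 replicate 1 against 12.90 to 12.98 in the other daf-2 libraries, and 10.7 in wt replicate 1 against 12.8 to 13.3 in the other wt libraries. The mean of 14 sperm genes was 5.99 in daf-2 replicate 1 against 7.30 to 7.76 in the other daf-2 libraries, and 6.99 in wt replicate 1 against 7.32 to 8.07 in the other wt libraries. In replicate 3 of the triple mutant the 4 adult-stage collagens averaged 8.23, close to the 7.838 to 7.997 of the other 3, while 5 furrow collagens averaged 7.65 against 5.38 to 6.03 and 21 moulting genes 8.28 against 7.55 to 7.79. The part of these differences in the results was not tested.

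With the htz-1 allele, 8 of the 10 collagens had lower means in all 3 backgrounds, and the other two, sqt-3 and dpy-17, followed a different course. In htz-1 against wt, 7 genes fell and 2 rose, with a median difference of -2.62 over the 10 genes against 0.03 over all genes tested. Of all genes tested in that comparison, 24.5% were called lower and 26.4% higher. In daf-2;htz-1 against daf-2, 8 fell and 1 rose, with a median difference of -2.31 against 0.04 over all genes, and with 20.1% of all genes called lower and 20.4% higher. In the triple mutant against daf-16;daf-2, 6 fell and 2 rose, with a median difference of -2.52 against 0.03 over all genes, and with 24.3% of all genes called lower and 24.1% higher. The share of the collagens called lower was above that of all genes in each of the 3 comparisons, but this is a description and not a test. Genes such as bli-2 passed the filter through the genotypes without the htz-1 allele, and the 10 genes were chosen with earlier results known. Without the 3 libraries that stood apart, a setting added after seeing the data, the counts were 8 lower and 2 higher, 9 lower and 1 higher, and 7 lower and 2 higher, in the same order.

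**Figure D2:**
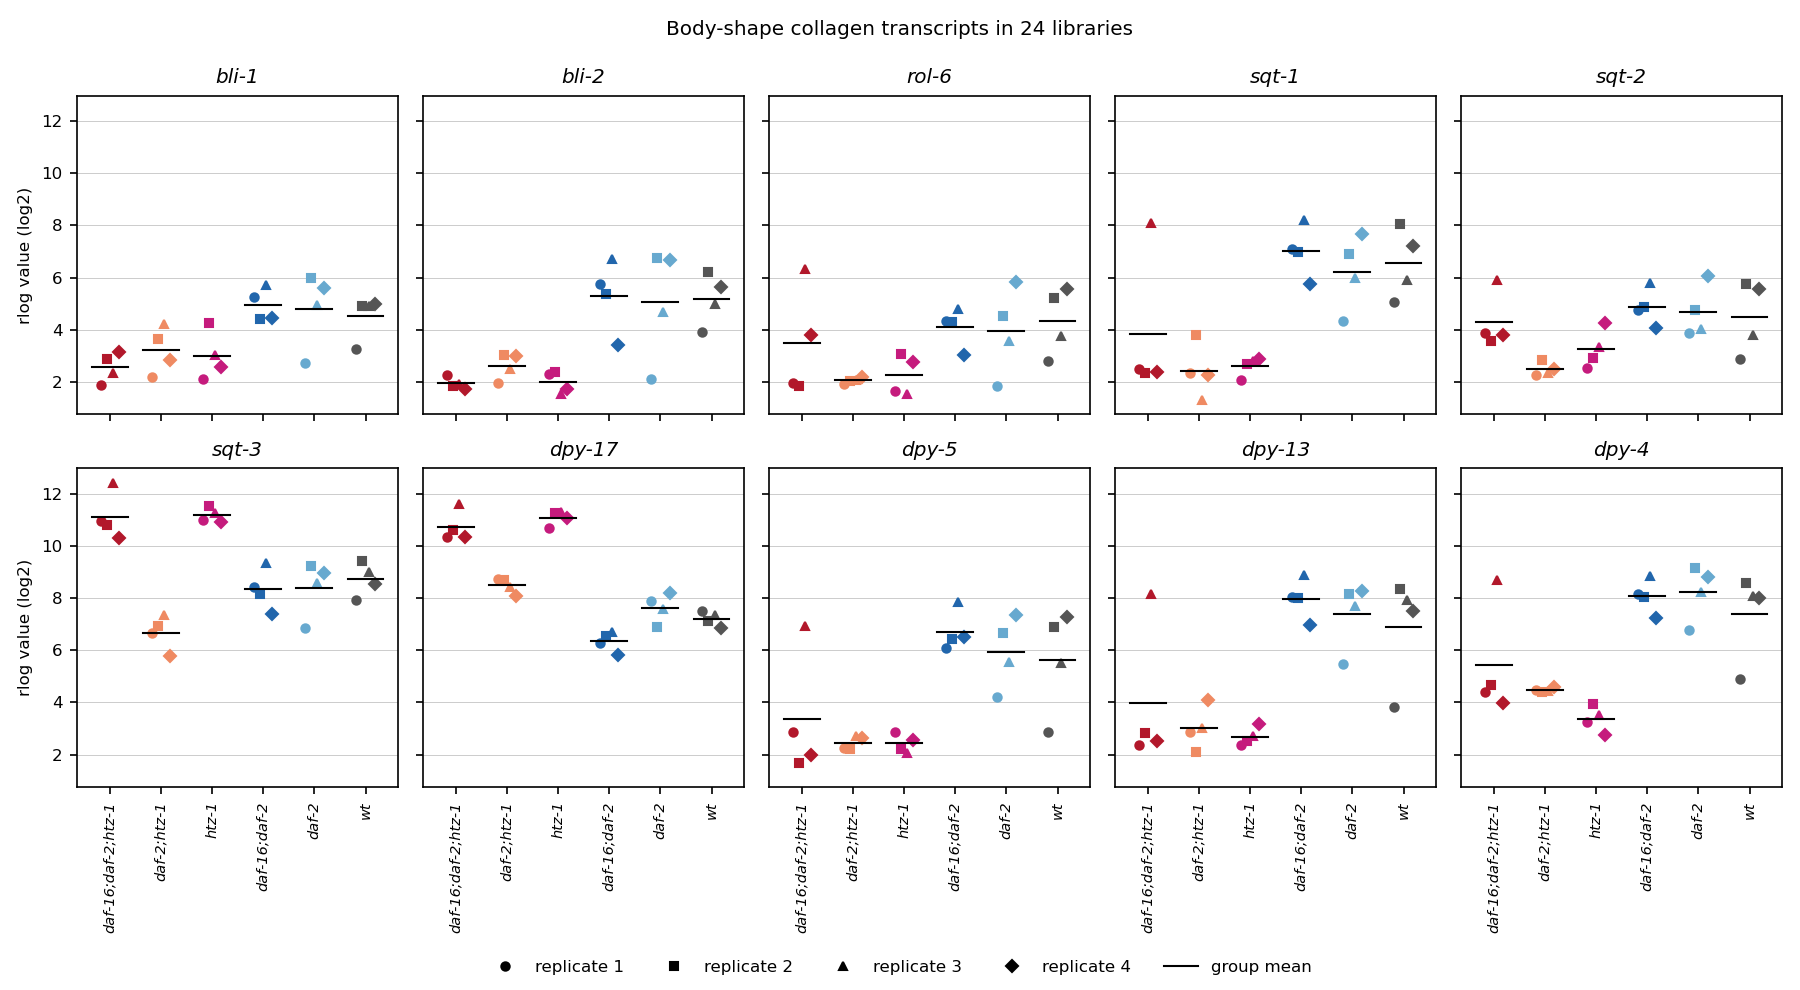
Rlog value (log2, y axis) of each of the 10 collagens in each of the 24 libraries, by genotype along the x axis, with 1 symbol per replicate number and a line at the mean of the 4 libraries. In 8 panels the 3 genotypes with the htz-1 allele lie low, but replicate 3 of the triple mutant (triangles) lies high in 6 of these 8, all but bli-1 and bli-2, whereas sqt-3 and dpy-17 are highest in htz-1 and in the triple mutant and much lower in daf-2;htz-1.

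The blister collagens were lower in every strain with the htz-1 allele than in its counterpart. The gene bli-1 (WBGene00000251, chromosome II, 10708960 to 10712156, plus strand) had rlog values of 2.13, 4.27, 3.05 and 2.57 in htz-1, against 3.26, 4.91, 4.93 and 4.97 in wt. All 4 batches gave a lower value in htz-1, but the 2 ranges overlapped through 1 high htz-1 library and the low wt library, and the fall was 1.51 with a standard error (SE) of 0.60 and an adjusted p of 0.0378. Its values were 2.19, 3.66, 4.23 and 2.83 in daf-2;htz-1 against 2.71, 5.98, 4.95 and 5.59 in daf-2, a difference of -1.58 ± 0.60 (SE, adjusted p = 0.0378). The triple mutant had 1.89, 2.87, 2.34 and 3.16, against 5.27, 4.40, 5.71 and 4.47 in daf-16;daf-2, and here the ranges did not overlap (difference -2.40 ± 0.60, SE, adjusted p = 0.00176). Replicate 3 of the triple mutant, which stood high in most of the other collagens, was not the highest for bli-1. The first 2 of these calls depended on which libraries were kept: that in htz-1 was lost when any of 6 single libraries was left out, with differences of -1.53 to -1.22, and that in daf-2;htz-1 when any of 5 was left out, with differences of -1.53 to -1.19. Both calls were kept without the 3 libraries that stood apart, at -1.93 (adjusted p = 0.00247) and -2.28 (adjusted p = 7.62e-04).

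The gene bli-2 (WBGene00000252, chromosome II, 5651394 to 5652434, minus strand) was low in all 3 strains with the htz-1 allele. It had 2.29, 2.37, 1.55 and 1.73 in htz-1 against 3.93, 6.21, 4.97 and 5.65 in wt, with every htz-1 library below every wt library (difference -3.21 ± 0.73, SE, adjusted p = 7.11e-04). Its values in the triple mutant were 2.26, 1.85, 1.94 and 1.75 against 5.75, 5.36, 6.70 and 3.42 in daf-16;daf-2, again without overlap (difference -3.36 ± 0.73, SE, adjusted p = 4.64e-04). The values in daf-2;htz-1 were 1.98, 3.05, 2.50 and 2.98, against 2.13, 6.74, 4.69 and 6.68 in daf-2. The low daf-2 library is replicate 1, and through it the 2 ranges overlapped (difference -2.43 ± 0.73, SE, adjusted p = 0.00994). Leaving out daf-2 replicate 2 or replicate 4 ended this call, with differences of -1.87 and -1.89 and adjusted p of 0.051 and 0.0509, while without daf-2 replicate 1 and the other 2 libraries that stood apart it was -3.41 (adjusted p = 4.36e-05).

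Among the roller and squat genes, sqt-1 (WBGene00005016, chromosome II, 11336693 to 11337837, minus strand) showed the most marked fall. It had 2.07, 2.70, 2.81 and 2.88 in htz-1 against 5.06, 8.05, 5.91 and 7.22 in wt, with no overlap and a difference of -3.95 ± 0.95 (SE, adjusted p = 0.00121). In daf-2;htz-1 it had 2.35, 3.82, 1.32 and 2.27, against 4.32, 6.88, 5.99 and 7.65 in daf-2, also without overlap (difference -3.77 ± 0.95, SE, adjusted p = 0.00265). Without the 3 libraries that stood apart, these differences from wt and from daf-2 were -4.45 and -4.40. The triple mutant showed how far a single library could stand away: sqt-1 had 2.49, 2.34 and 2.40 in replicates 1, 2 and 4 and 8.08 in replicate 3, against 7.09, 6.97, 8.22 and 5.76 in daf-16;daf-2. Its difference there was -3.18 ± 0.95 (SE, adjusted p = 0.00757), and -4.60 without replicate 3 of the triple mutant (adjusted p = 7.27e-06).

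Its partner rol-6 (WBGene00004397, chromosome II, 8733050 to 8734239, plus strand) was lower as well, though by less and with more overlap. It had 1.67, 3.09, 1.56 and 2.78 in htz-1 against 2.81, 5.20, 3.75 and 5.55 in wt, lower within each of the 4 batches (difference -2.05 ± 0.81, SE, adjusted p = 0.037). This call was lost when htz-1 replicate 1 or 3, or wt replicate 2 or 4, was left out, with differences of -1.85 to -1.65. It was kept without the 3 libraries that stood apart, at -2.56 (adjusted p = 6.31e-04). In daf-2;htz-1 the 4 values were tightly grouped at 1.91, 2.05, 2.09 and 2.20, against 1.85, 4.51, 3.59 and 5.84 in daf-2. That difference of -1.88 ± 0.81 (SE) had an adjusted p of 0.0662, against 0.0496 in the paired analysis with the batch as a replicate block and 0.0129 without daf-2 replicate 1, where the difference was -2.58. For the triple mutant rol-6 was at 1.96, 1.85, 6.33 and 3.79 against 4.33, 4.31, 4.78 and 3.04 in daf-16;daf-2, and the difference of -0.64 did not pass the test (95% interval -2.31 to 1.03, adjusted p = 0.544). Without replicate 3 of the triple mutant it was -1.58 (adjusted p = 0.0749), and without all 3 libraries that stood apart the same difference had an adjusted p of 0.0242.

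The gene sqt-2 (WBGene00005017, chromosome II, 23325 to 24458, plus strand), mutants of which can be short or roll, fell in 1 of the 3 backgrounds. It had 2.26, 2.84, 2.34 and 2.51 in daf-2;htz-1 against 3.87, 4.75, 4.04 and 6.06 in daf-2, with no overlap (difference -2.19 ± 0.60, SE, adjusted p = 0.00494). In htz-1 it had 2.53, 2.90, 3.33 and 4.26 against 2.89, 5.77, 3.80 and 5.56 in wt, a difference of -1.25 (95% interval -2.48 to -0.02) with an adjusted p of 0.0848. All 4 batches were lower in htz-1, and without wt replicate 1 the difference was -1.79 with an adjusted p of 0.0142. The triple mutant had 3.89, 3.57, 5.89 and 3.82, against 4.74, 4.87, 5.81 and 4.08 in daf-16;daf-2, and that difference of -0.58 did not pass the test (95% interval -1.82 to 0.65, adjusted p = 0.445). Without replicate 3 of the triple mutant it was -1.12 (adjusted p = 0.124).

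The 3 dumpy genes dpy-13, dpy-5 and dpy-4 fell in all 3 backgrounds, and dpy-13 had the largest fall of the 10 in each of them. The gene dpy-13 (WBGene00001074, chromosome IV, 4235614 to 4236710, plus strand), in which mutants are short and stout, had 2.36, 2.51, 2.71 and 3.19 in htz-1 against 3.81, 8.36, 7.92 and 7.50 in wt. Every htz-1 library lay below every wt library, with a difference of -4.21 ± 0.99 (SE, adjusted p = 9.35e-04), or -5.24 without the low wt replicate 1 and the other 2 libraries that stood apart. In daf-2;htz-1 it had 2.86, 2.11, 3.03 and 4.07 against 5.49, 8.14, 7.71 and 8.28 in daf-2 (difference -4.39 ± 0.99, SE, adjusted p = 9.66e-04). These ranges did not overlap either, and the difference was -5.02 without the 3 libraries that stood apart. For the triple mutant dpy-13 was at 2.35, 2.84 and 2.53 in replicates 1, 2 and 4 but 8.15 in replicate 3, against 8.03, 7.98, 8.87 and 6.98 in daf-16;daf-2. The difference was -3.998 ± 0.99 (SE, adjusted p = 0.00159), and -5.39 without replicate 3.

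The gene dpy-5 (WBGene00001067, chromosome I, 5432197 to 5433051, minus strand), whose product is a target of the cuticle protease BLI-4, had 2.86, 2.23, 2.06 and 2.57 in htz-1 against 2.85, 6.87, 5.49 and 7.27 in wt. The 2 ranges touched at wt replicate 1, where the batch difference was 0.01, while the other 3 batches were at -4.69 to -3.43 (difference -3.19 ± 0.90, SE, adjusted p = 0.00475). In daf-2;htz-1 its values of 2.24, 2.20, 2.72 and 2.62 lay below all those of daf-2, which were 4.20, 6.65, 5.53 and 7.34 (difference -3.49 ± 0.90, SE, adjusted p = 0.0033). The triple mutant had 2.86, 1.69, 6.94 and 1.97, against 6.07, 6.41, 7.85 and 6.51 in daf-16;daf-2. Replicate 3 of the triple mutant thus fell within the range of daf-16;daf-2 and the other 3 libraries far below it (difference -3.34 ± 0.90, SE, adjusted p = 0.00346). Without that library the difference was -4.54 (adjusted p = 2.1e-05), and without all 3 libraries that stood apart those of htz-1 and daf-2;htz-1 were -4.11 and -4.06.

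The gene dpy-4 (WBGene00001066, chromosome IV, 14985543 to 14986784, minus strand) had 3.24, 3.94, 3.51 and 2.75 in htz-1 against 4.91, 8.57, 8.06 and 7.98 in wt, without overlap (difference -4.02 ± 0.78, SE, adjusted p = 1.24e-04). In daf-2;htz-1 it had 4.49, 4.41, 4.45 and 4.59 against 6.76, 9.15, 8.22 and 8.81 in daf-2 (difference -3.75 ± 0.78, SE, adjusted p = 4.55e-04). The SD of 0.08 among these daf-2;htz-1 libraries was the smallest of any of the 10 genes in any genotype. The triple mutant had 4.39, 4.67, 8.69 and 3.97, against 8.15, 8.02, 8.85 and 7.24 in daf-16;daf-2 (difference -2.63 ± 0.78, SE, adjusted p = 0.00698). That difference was -3.72 without replicate 3 of the triple mutant (adjusted p = 2.23e-05), and without all 3 libraries that stood apart those of htz-1 and daf-2;htz-1 were -4.84 and -4.24.

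The gene sqt-3 did not follow the others. It lies on chromosome V (WBGene00005018, 12352745 to 12354320, plus strand) and had 10.9997, 11.52, 11.24 and 10.92 in htz-1, against 7.93, 9.42, 8.999 and 8.52 in wt. Every htz-1 library exceeded every wt library, by 2.10 to 3.07 within batches (difference 2.45 ± 0.48, SE, adjusted p = 1.31e-04). The triple mutant had 10.96, 10.81, 12.40 and 10.29, against 8.44, 8.16, 9.33 and 7.38 in daf-16;daf-2, a rise of the same kind (difference 2.79 ± 0.48, SE, adjusted p = 2.78e-05). In daf-2;htz-1 the direction was the opposite: sqt-3 had 6.64, 6.92, 7.34 and 5.76, against 6.85, 9.21, 8.59 and 8.94 in daf-2. It fell in this background by 1.73 (SE 0.48, adjusted p = 0.00542), with overlap only through daf-2 replicate 1, and by 2.25 without the libraries that stood apart.

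The gene dpy-17 (WBGene00001076, chromosome III, 5107330 to 5108492, plus strand), whose product SQT-3 needs for secretion, was high in the same 2 genotypes. It had 10.70, 11.25, 11.30 and 11.07 in htz-1 against 7.49, 7.12, 7.36 and 6.84 in wt (difference 3.87 ± 0.28, SE, adjusted p = 7.63e-11). In the triple mutant it had 10.35, 10.60, 11.62 and 10.34 against 6.25, 6.55, 6.70 and 5.81 in daf-16;daf-2 (difference 4.40 ± 0.28, SE, adjusted p = 1.12e-11). Both pairs of ranges were far apart. In daf-2;htz-1 it had 8.71, 8.70, 8.41 and 8.09, against 7.87, 6.90, 7.56 and 8.19 in daf-2. This rise was smaller, 0.85 ± 0.28 (SE, adjusted p = 0.0168), the ranges overlapped, and 1 of the 4 batches went the other way. It was 0.61 without daf-2 replicate 2 (adjusted p = 0.0847), 0.77 without daf-2;htz-1 replicate 1 (adjusted p = 0.0518), and 0.73 after centring each library on its median (adjusted p = 0.0613).

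**Figure D3:**
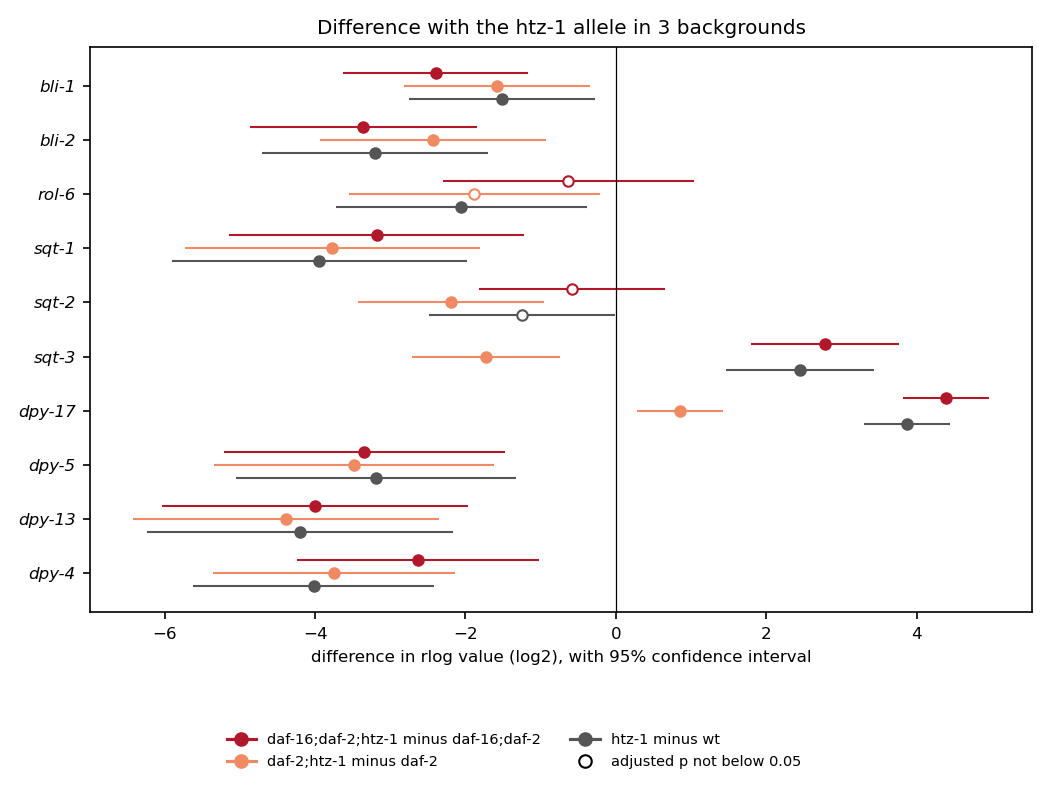
Difference in rlog value (log2, x axis) with the htz-1 allele for each collagen (y axis), as the triple mutant minus daf-16;daf-2 (red), daf-2;htz-1 minus daf-2 (orange) and htz-1 minus wt (grey), with 95% confidence intervals from limma and open symbols where the adjusted p was not below 0.05. In 8 genes the 3 intervals overlap below or near 0, whereas for sqt-3 and dpy-17 the orange point lies apart from the other two, at -1.73 and 0.85.

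Whether the htz-1 difference itself changed between backgrounds was tested as a difference of differences. Between the daf-2 and the wt background, sqt-3 changed by -4.18 ± 0.68 (SE, adjusted p = 2.16e-04) and dpy-17 by -3.03 ± 0.39 (SE, adjusted p = 1.47e-05), each of them lower in the daf-2 background. The other 8 collagens were not called, with values of -0.94 to 0.77 and 95% intervals that together spanned -3.06 to 2.95, so that changes of several log2 units in single genes are not excluded by these data. Of all genes tested, 5.57% were called lower and 7.78% higher in this difference. Between the daf-16;daf-2 and the daf-2 background, sqt-3 changed by 4.52 ± 0.68 (SE, adjusted p = 5.16e-05) and dpy-17 by 3.55 ± 0.39 (SE, adjusted p = 1.45e-06), each of them higher in the daf-16;daf-2 background. Here 10.01% of all genes were called higher and 16.5% lower, and the other 8 collagens lay between -0.93 and 1.61 without a call. The 2 differences share the daf-2 and daf-2;htz-1 libraries. All 4 calls were kept without any single library of the genotypes compared and without the 3 that stood apart.

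The same contrast was seen directly between strains with the htz-1 allele. In daf-2;htz-1 against htz-1, sqt-3 fell by 4.50 (SE 0.48, adjusted p = 3.07e-07) and dpy-17 fell by 2.60 (SE 0.28, adjusted p = 3.21e-07), both without overlap. None of the other 8 was called, with differences of -0.77 to 1.12 and 8 adjusted p of 0.355 or more. The largest of these, dpy-4, had a higher value in daf-2;htz-1 in all 4 libraries and batches, and its difference of 1.12 had an adjusted p of 0.355, or 0.00956 when only the 2 genotypes compared were fitted. In this comparison 8.04% of all genes were called lower and 11.5% higher. In the triple mutant against daf-2;htz-1, sqt-3 rose by 4.45 ± 0.48 (SE, adjusted p = 2.15e-07), dpy-17 by 2.25 ± 0.28 (SE, adjusted p = 1.54e-06) and sqt-2 by 1.80 ± 0.60 (SE, adjusted p = 0.0246), against 12.8% of all genes called higher and 17.4% lower. The sqt-2 call was lost without replicate 3 of the triple mutant, where its rise was 1.27 (adjusted p = 0.109). It was also lost without daf-2;htz-1 replicate 1 or 3 (1.73 and 1.75, adjusted p = 0.0602 and 0.0551). Every triple mutant library nevertheless lay above every daf-2;htz-1 library for sqt-2, and all 4 batches were higher. Of the 7 genes not called, sqt-1, dpy-5, dpy-13 and dpy-4 had differences of 0.92 to 1.39 with replicate 3 and of -0.44 to -0.03 without it.

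Between the strains without the htz-1 allele, 1 of the 10 collagens was called in 1 of the 2 comparisons. None of the 10 was called in daf-2 against wt with limma, and none had an unadjusted p below 0.05; their differences ran from -0.38 to 0.85 with a median of 0.23, against -0.03 over all genes. In that comparison 6.43% of all genes were called higher and 5.95% lower. The 95% intervals of the 10 together spanned -2.31 to 2.54, so that a change of 2-fold or more in single genes was not excluded at this spread. In daf-16;daf-2 against daf-2, 1 of the 10 was called, against 9.65% of all genes called lower and 16.01% called higher. That gene was dpy-17, which had 6.25, 6.55, 6.70 and 5.81 in daf-16;daf-2 against 7.87, 6.90, 7.56 and 8.19 in daf-2, without overlap (difference -1.30 ± 0.28, SE, adjusted p = 0.00148). The other 9 lay between -0.17 and 0.80, with 95% intervals that together spanned -1.78 to 2.76. Their signs rested on daf-2 replicate 1: without it and wt replicate 1 the 9 ran from -0.73 to 0.20, and bli-1, bli-2, rol-6, sqt-2 and dpy-13 took the opposite sign, none of them called.

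Ordered by their means, the 6 genotypes formed clear steps for sqt-3 and dpy-17 and few for the others. For sqt-3 the order was htz-1 (11.17 ± 0.27), the triple mutant (11.12 ± 0.91), wt (8.72 ± 0.64), daf-2 (8.40 ± 1.06), daf-16;daf-2 (8.33 ± 0.80) and daf-2;htz-1 (6.67 ± 0.67) (SD, n = 4 each). Neighbours in this order overlapped except at the step below the triple mutant and the step above daf-2;htz-1. For dpy-17 it was htz-1 (11.08 ± 0.27), the triple mutant (10.73 ± 0.60), daf-2;htz-1 (8.48 ± 0.29), daf-2 (7.63 ± 0.55), wt (7.20 ± 0.29) and daf-16;daf-2 (6.33 ± 0.39) (SD, n = 4 each), with neighbours apart below the triple mutant and above daf-16;daf-2. In the other 8 genes the 3 genotypes without the htz-1 allele held the top 3 places, and neighbouring ranges overlapped throughout except between daf-2;htz-1 and htz-1 for dpy-4.

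Late embryos make the first cuticle, and markers of late embryos and of that cuticle were, like sqt-3 and dpy-17, high in htz-1 and in the triple mutant. In daf-2;htz-1 against daf-2 they parted from sqt-3, which was at -1.73 while the median of these markers was 0.34. All 8 genes of this list rose in htz-1 against wt (median 4.70) and in the triple mutant against daf-16;daf-2 (median 4.09), against 2 higher and 1 lower in daf-2;htz-1 against daf-2 (median 0.34), and all 8 fell in daf-2;htz-1 against htz-1 (median -4.80). Their mean rlog value ranged over libraries from 9.83 to 10.5 in the triple mutant, 4.39 to 6.01 in daf-2;htz-1, 10.1 to 10.8 in htz-1, 5.03 to 5.37 in daf-16;daf-2, 4.68 to 5.49 in daf-2 and 4.53 to 5.39 in wt. In the list are hch-1, the hatching protease, and the collagen dpy-14. The gene hch-1 averaged 10.43 ± 0.20 in the triple mutant, 4.12 ± 2.32 in daf-2;htz-1, 10.83 ± 0.43 in htz-1, 2.02 ± 0.22 in daf-16;daf-2, 3.06 ± 0.86 in daf-2 and 2.16 ± 0.13 in wt (SD, n = 4 each). Of 11 genes of early embryos, 10 were found among the genes measured and only 5 passed the filter. Of these 5, 3 rose in htz-1 against wt, 2 in daf-2;htz-1 against daf-2 and 3 in the triple mutant against daf-16;daf-2, and none fell. In the same order, 26.4%, 20.4% and 24.1% of all genes tested were called higher. Whole animals were sequenced, so eggs inside the adults are part of the sample, and more RNA from embryos and more RNA per cell cannot be told apart. The part of these markers in the sqt-3 and dpy-17 results was not tested.

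**Figure D4:**
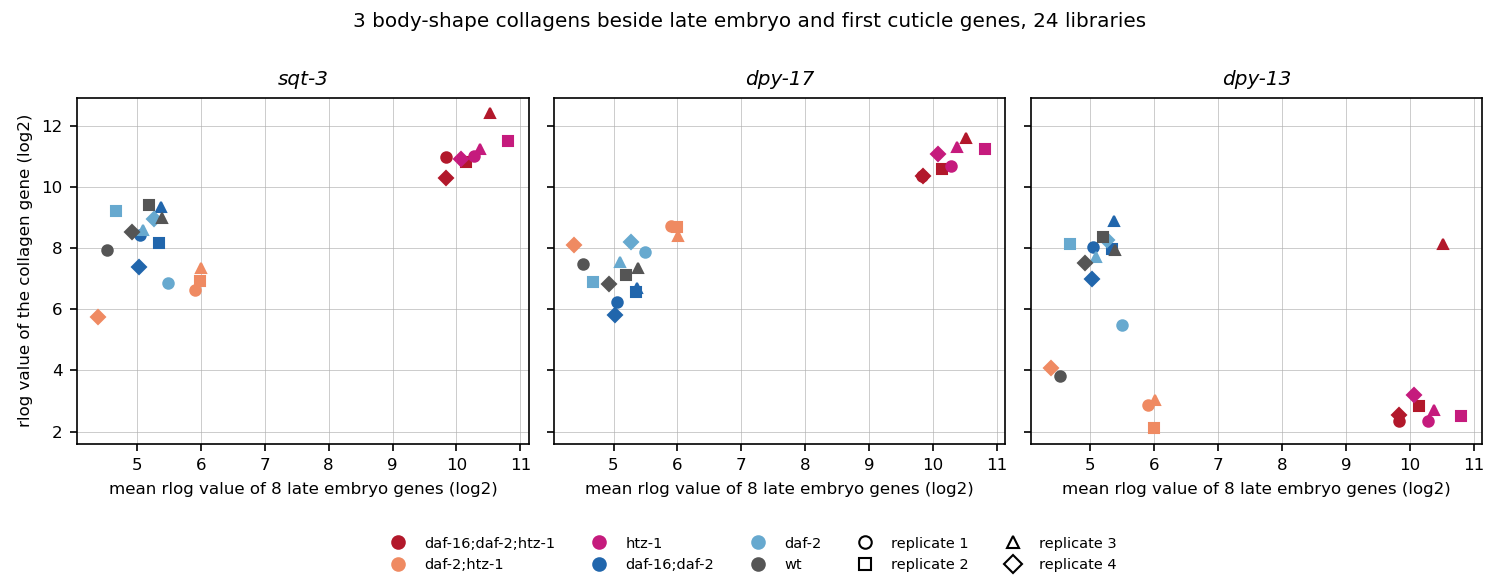
Rlog value (log2, y axis) of sqt-3, dpy-17 and dpy-13 against the mean rlog value of 8 late embryo and first cuticle genes (log2, x axis) in the same library, 24 libraries, coloured by genotype with 1 symbol per replicate number. The triple mutant and htz-1 form a cluster at 9.83 to 10.8 on the x axis, where sqt-3 and dpy-17 are high and dpy-13 is low but for 1 library, and the other 16 libraries lie at or below 6.01.

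Markers of the epidermis, the tissue that makes the cuticle, were lower in htz-1 as well, with a smaller median difference than the collagens. Of 11 such genes, 8 fell and 1 rose in htz-1 against wt (median -0.66), 3 fell and 1 rose in daf-2;htz-1 against daf-2 (median -0.03), and 4 fell and 2 rose in the triple mutant against daf-16;daf-2 (median -0.40). Examples in htz-1 are mua-3, an epidermal attachment protein, at -1.74 ± 0.22 (SE, adjusted p = 4.78e-07), and sta-2, a STAT family protein, at 1.09 ± 0.23 (SE, adjusted p = 2.53e-04). The mean of the list over libraries was 8.83 to 9.33 in the triple mutant, 8.91 to 9.12 in daf-2;htz-1, 8.66 to 9.33 in htz-1, 9.22 to 9.59 in daf-16;daf-2, 8.87 to 9.48 in daf-2 and 9.25 to 10.1 in wt. In these bulk samples fewer epidermal cells and less RNA per cell cannot be told apart, and the part of the epidermis markers in the collagen results was not tested. Of 14 sperm genes, 13 fell in htz-1 against wt, 11 in daf-2;htz-1 against daf-2 and 14 in the triple mutant against daf-16;daf-2. Of 14 genes of oogenesis and the germline, 3 fell and none rose in htz-1, 2 fell and none rose in daf-2;htz-1, and 3 rose and 1 fell in the triple mutant, each a share below that of all genes called in that direction (24.5%, 20.1%, and 24.1% with 24.3%).

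Other shape collagens also differed in both directions with the htz-1 allele. Of all genes tested, 24.5% were called lower and 26.4% higher in htz-1 against wt. The shares were 20.1% and 20.4% in daf-2;htz-1 against daf-2, and 24.3% and 24.1% in the triple mutant against daf-16;daf-2. Counts in lists this small are given as descriptions. The furrow collagens, of which 5 of 6 passed the filter (dpy-3 did not), had 3 higher and 1 lower in htz-1 against wt: dpy-7 rose by 4.95 ± 0.71, dpy-2 by 3.19 ± 0.48 and dpy-10 by 2.38 ± 0.27, dpy-8 fell by 1.38 (SE 0.45), and dpy-9 was at -0.03 ± 0.40 (SE). In daf-2;htz-1 against daf-2 none of them rose and dpy-8 fell, and in the triple mutant against daf-16;daf-2 dpy-2, dpy-7 and dpy-10 rose. In the difference of the htz-1 effect between the daf-2 and the wt background 3 of the 5 were called lower, with a median of -2.14. Of all genes tested, 5.57% were called lower there. Of 5 further shape collagens, bli-6 fell by 6.04 (SE 0.33) in htz-1, rol-1 by 3.56 (SE 0.81) and rol-8 by 2.77 (SE 1.03), dpy-14 rose by 8.50 ± 0.58 and lon-3 was at -0.69 ± 0.68 (SE). In daf-2;htz-1 against daf-2, 4 of these 5 fell and dpy-14 rose, and in the triple mutant against daf-16;daf-2, 2 fell and dpy-14 rose. Of the 4 adult-stage collagens, col-7 fell by 8.12 (SE 0.56) and col-62 by 7.40 (SE 0.56) in htz-1, further than any of the 10, and 3 of 4, 4 of 4 and 3 of 4 were called lower in htz-1 against wt, in daf-2;htz-1 against daf-2 and in the triple mutant against daf-16;daf-2.

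Among genes for the hydroxylation, trimming and cross-linking of cuticle collagens some were called in each direction, with medians near 0. Moulting genes rose more often than they fell with the htz-1 allele. All genes tested had 26.4% called higher and 24.5% lower in htz-1 against wt, 20.4% and 20.1% in daf-2;htz-1 against daf-2, and 24.1% and 24.3% in the triple mutant against daf-16;daf-2, and several of the counts that follow are close to or below those shares. Of 12 genes for collagen hydroxylation, trimming and cross-linking, 3 rose and 5 fell in htz-1 against wt (median -0.07), 3 rose and 1 fell in daf-2;htz-1 against daf-2 (median -0.06), and 2 rose and 4 fell in the triple mutant against daf-16;daf-2 (median -0.13). The prolyl hydroxylase genes phy-3 and phy-2 went apart in htz-1, at -2.25 ± 0.33 and 0.79 ± 0.16 (SE). The astacin protease gene dpy-31, whose product trims SQT-3, rose by 0.50 ± 0.17 in daf-2;htz-1 against daf-2 (SE, adjusted p = 0.023), and was at 0.16 ± 0.17 in htz-1 against wt and 0.07 ± 0.17 in the triple mutant against daf-16;daf-2. The DBL-1 pathway, a TGF-beta pathway that sets body size and acts on cuticle collagens, had 2 of 12 genes higher and none lower in htz-1 (crm-1 at 0.69 and lon-2 at 0.47), 6 higher and none lower in daf-2;htz-1, and 4 higher and 2 lower in the triple mutant. Of 21 moulting genes, 12 rose and 2 fell in htz-1 against wt (median 0.85, with noah-1 at 5.16 and noah-2 at 4.13), 4 rose and 3 fell in daf-2;htz-1 against daf-2 (median -0.05), and 13 rose and none fell in the triple mutant against daf-16;daf-2 (median 1.07). The moulting and late embryo lists share genes, noah-1 and noah-2 among them.

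Over the 24 libraries, genotype differences included, the 10 collagens fell into the same 2 sets. Pearson correlations among the 8 that were low with the htz-1 allele ran from 0.53 to 0.97 over 28 pairs, with a median of 0.82, and the pair sqt-3 and dpy-17 had 0.70. The 16 pairs between the sets ran from -0.76 to 0.27. After the genotype means were removed, the 2 sets no longer held: the median within the 8 was 0.74, and sqt-3 correlated with each of these 8 at 0.61 to 0.80, above its 0.35 with dpy-17. The correlations of dpy-17 with the 8 then ran from -0.11 to 0.50. These points share libraries and genotypes, and the correlations are given as a description.

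For each collagen, the 3 tested genes most like it over the 24 libraries were ranked by the same correlation. For dpy-13, dpy-5 and dpy-4 they came in part from the set itself and from the collagen gene col-73, at 0.977 for dpy-13, 0.965 for dpy-5 and 0.965 for dpy-4. For sqt-1 they were col-107 and col-175 at 0.948 each and dpy-5 at 0.943, for bli-2 dao-4 at 0.921, col-110 at 0.916 and col-79 at 0.913, and for rol-6 col-17 at 0.907, sqt-2 at 0.881 and rol-8 at 0.874. The gene most like bli-1 was T22A3.6 at 0.890, and that most like sqt-2 was C02E7.6 at 0.917. Neighbours of a different kind were found for sqt-3, with mlt-11, a moulting protease inhibitor, at 0.931, sym-1 at 0.921 and H42K12.3 at 0.912, and for dpy-17, with cav-1, a caveolin, at 0.973, cec-8 at 0.965 and C08F1.10 at 0.965. With genotype means removed, the values for sqt-3 were 0.75 with mlt-11 and 0.47 with sym-1, and that for dpy-17 with cav-1 was 0.41.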

How the data were processed

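Per the labels' protocols, Trizol-lysed whole animals gave total RNA (miRNeasy Micro kit) for SMART-Seq2 libraries. The authors deposited regularized log2 (rlog) values of 21689 genes in 24 libraries. The steps that made them are not given in the sources used. The submitters' processing notes name bcl2fastq 2.20, kallisto 048.0 and build WBcel235.

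Genes with a mean of at least 3 (14482) were fitted with limma 3.58.1 in R 4.3.3, with 1 mean per genotype, 18 residual degrees of freedom and an intensity trend. The fit gave 7 pairwise comparisons and 2 differences of the htz-1 effect, tested 2-sided with Benjamini-Hochberg adjustment over all genes tested and a threshold of 0.05. The procedure was tested on simulated data. Groups come from the labels.

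Replicate numbers equal the labelled batch, so they pair libraries. Deviations from group means correlated at 0.0504 on average within batches and -0.0163 between them, and at -0.301 to 0.513 over single pairs of the same batch. The highest value was that of wt and daf-2 in batch 1, 2 of the libraries that stood apart. No pair of libraries within a group was a duplicate (correlations 0.949 to 0.991).

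All 10 collagens, all furrow and other shape collagens, up to 2 genes with the smallest p of each of 11 lists and the 3 genes most like each collagen were eligible to be named. The genes hch-1 and dpy-31 were named after their values were seen. The collagens and lists were chosen with earlier results of these data known. Alternatives were a batch block, no filter, a minimum mean of 5, median centring, quantile normalization, no trend, only the groups compared, and each library of the genotypes compared left out. Planned descriptions of promoters and proteins were not made, and sequences were not used here.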

Additional observations from a re-analysis of the deposited data

Results flagged for a closer look

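In the triple mutant, replicate 3 was flagged by Dixon's test as far above the other 3 libraries in 4 collagens: sqt-1 had 8.08 against 2.34 to 2.49, dpy-13 had 8.15 against 2.35 to 2.84, dpy-4 had 8.69 against 3.97 to 4.67, and sqt-2 had 5.89 against 3.57 to 3.89. That library was also the highest for dpy-5 and rol-6, by 4.97 and 4.37 over the median of the other 3, without being flagged. Also, values were low in wt replicate 1, where bli-1 had 3.26 against 4.91 to 4.97 and dpy-4 had 4.91 against 7.98 to 8.57. In all, 6 of the 60 sets of 4 libraries (10 genes in 6 genotypes) had a library this far from the others by Dixon's test, which flags about 1 set in 20 by chance, and these 6 are not independent, since they come from 2 libraries.

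The difference made by the htz-1 allele was not the same in the 3 backgrounds for sqt-3 and dpy-17. In the interaction test between the daf-2 and the wt background sqt-3 changed by -4.18 and dpy-17 by -3.03, and between the daf-16;daf-2 and the daf-2 background they changed by 4.52 and 3.55.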

How the results depend on the processing

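Of 36 called differences of single collagens, 30 were kept whichever library of the genotypes compared was left out. Under all other planned settings, 34 were kept wherever the gene was tested. With a minimum mean of 5, where only sqt-3, dpy-17, dpy-13 and dpy-4 could be tested, the number called lower was 2 in htz-1 against wt, 3 in daf-2;htz-1 against daf-2 and 2 in the triple mutant against daf-16;daf-2. Median centring left 0 called higher in daf-2;htz-1 against daf-2, and leaving out 1 library gave 0 to 1 there. In daf-2;htz-1 against htz-1, 1 was called higher (dpy-4, 1.12) with only the groups compared, and 1 without the 3 libraries that stood apart. Fitting only the groups compared also ended the call of bli-1 in daf-2;htz-1 against daf-2 (-1.58, adjusted p = 0.0744). The paired analysis with the batch as a replicate block added the call of rol-6 in daf-2;htz-1 against daf-2 (-1.88, adjusted p = 0.0496) and changed no other. That rol-6 difference was also called with median centring (-2.01, adjusted p = 0.0339), quantile normalization (-2.14, adjusted p = 0.0316) and only the groups compared (adjusted p = 0.0369), and quantile normalization also called sqt-2 in htz-1 against wt (-1.44, adjusted p = 0.0316). Among 50 differences never called under any setting, up to 19 took the opposite sign when libraries were left out, among them sqt-1, dpy-5, dpy-13 and dpy-4 in the triple mutant against daf-2;htz-1. Median centring moved the median of all genes by 0.22 in the triple mutant against daf-16;daf-2, by 0.19 against daf-2;htz-1, by -0.16 in daf-16;daf-2 against daf-2, by -0.12 in daf-2;htz-1 against daf-2 and against htz-1, and by 0.35 and -0.12 in the 2 differences of the htz-1 effect, with no change of direction in a called collagen. The cause of these changes was not tested. Unknown depth and the shrinkage of low values limit bli-1, bli-2, rol-6, sqt-1, sqt-2 and dpy-5 most.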
